A study of Rattus norvegicus with 4 samples.

Results

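The comparison described here sets cells given IPTG for 24 h against cells given no addition, both without zinc. It rests on 2 of the 4 arrays of the study, 1 array per condition. The cells were Rat-1·RasValA1, a stable line derived from rat embryonic fibroblasts that carries HrasG12V behind a promoter switched on by IPTG, a lactose analogue that cells do not break down. Both cultures carried this allele, and both were moved from medium with serum and selection drugs to serum-free DMEM with bovine serum albumin for the 24 h before RNA was taken. The IPTG culture received 5 mM IPTG, and the control culture none. In the remaining 2 cultures, 3 µM ZnCl2 was present without and with 5 mM IPTG. They enter below only as values beside the comparison. No array held cells without the inducible allele, so induction of HrasG12V and an effect of IPTG itself cannot be told apart. The labels do not say how many clones or cultures stand behind each RNA.

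Ras proteins are small GTPases that switch between an active form bound to GTP and an inactive form bound to GDP. The G12V substitution keeps Hras in its active form, so that it signals through the RAF, MEK and ERK kinases and through phosphatidylinositol 3-kinase without a growth factor. In fibroblasts, activated Ras is known for morphological transformation and for growth in low serum. These statements are background and were not measured on these arrays.

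Members were the gene probes with a deposited normalized intensity of 25 or more on at least 1 of the 2 arrays, where 25 is the median of the probes listed on each array. This held for 7735 of 20174 gene probes (38.3%). Of the rest, 7298 were listed on at least 1 of the 2 arrays but stayed under 25, and 5141 were listed on neither. Both arrays listed a value for 7721 of the 7735, and these form the comparison. At the limit itself, the probe just inside had 25.0351 without IPTG and 18.8 with it, and the probe just outside 24.9986 and 9.36. Each probe is known by an Ensembl gene identifier. The sources used here do not pair these identifiers with gene symbols (0 of 20174 matched), so no probe is named as a gene. The Hras probe, the fibroblast markers and all function lists were for that reason not analysed here. At most 2 identifiers per direction are given.

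Expression differed widely between the 2 cultures. At least 2-fold higher with IPTG were 932 of the 7721 probes (12.1%), and 1028 were at least 2-fold lower (13.3%), together 25.4% of the probes. At least 4-fold higher were 163 (2.11%), and at least 4-fold lower were 287 (3.72%). At 8-fold the counts were 51 higher and 73 lower, and at 16-fold 24 and 24. Both directions were thus alike in number at 2-fold, while at 4-fold more probes were lower. Within 1.5-fold of each other were 4196 probes (54.3%). These are sizes on 1 pair of arrays, with no replicate check and no p-value. They also depend on how background is handled. With normexp on the local background, an offset of 50 and quantile normalization, the 2-fold counts were 596 higher and 684 lower. Among them were 41.8% of the 932 and 40.3% of the 1028 probes. The offset shrinks the folds of dim probes too, and its part was not separated from that of the local background.

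Fold differences here are relative to the median probe. As deposited, the median of the 7721 log2 ratios of IPTG over no addition was 0.33, a ratio of 1.26. The authors' scale factor per unit of scanner signal was 1.18 times as large on the IPTG array (0.24 on the log2 scale), and 14608 probes were listed there against 13830 without IPTG. The median ratio was taken off every probe. Without that step the 2-fold counts were 1559 higher and 659 lower, so the higher share of the 2-fold probes went from 47.6% to 70.3%. The excess of either direction therefore depends on scaling.

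**Figure D1:**
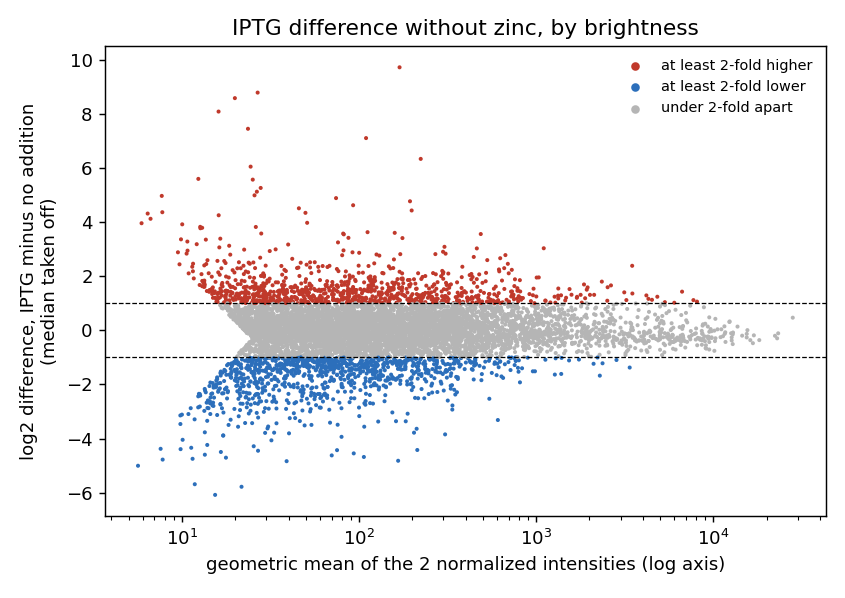
Log2 difference of IPTG minus no addition (vertical, overall median taken off) against the geometric mean of the 2 normalized intensities (horizontal, log axis) for 7721 probes, 1 point each. Red points are the 932 probes at least 2-fold higher and blue points the 1028 at least 2-fold lower; the dashed lines mark 2-fold, and the fan narrows towards bright probes.

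The differences were spread over the whole range of brightness but were more frequent among dim probes. Part of this was fixed by the limit: a probe with a geometric mean far under 25 enters only if its 2 values lie far apart. Of the 7721 probes, 807 reached 25 with IPTG only and 430 with no addition only. With 25 or more on both arrays, 19.2% of 6484 probes lay past 2-fold. In the dimmest of 4 equal classes of the 7721 probes (geometric mean of the 2 values up to 45.9), the counts past 2-fold were 336 higher and 406 lower, which is 38.4% of 1931. In the brightest class (geometric mean from 299.6), 184 were higher and 110 lower, 15.2% of 1930. With the median ratio taken off, the lower direction was thus the more frequent in the dimmest class and the higher in the brightest. The split by class without that step was not computed. The interquartile range of the log2 difference was 1.48 in the dimmest class and 0.85 in the brightest. Without IPTG, 25 of the 51 probes that were 8-fold or more higher had a value under 5. With IPTG, 23 of the 73 that were 8-fold or more lower had one. The size of such folds moves with the lowest value allowed. Setting all values under 5 to 5 left the 2-fold counts at 932 and 1028, which follows from the limit of 25 on the brighter array.

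The arrays without IPTG give a scale for these widths. Between the cultures with zinc and with no addition, both without IPTG, 18 of 6981 probes lay past 2-fold (0.258%), 15 of them higher and 3 lower with zinc, and 96.6% lay within 1.5-fold. The central 50% of log2 differences spanned -0.13 to 0.15 there, against -0.52 to 0.54 for IPTG. That comparison holds any effect of zinc as well as the spread between 2 cultures and 2 arrays, and it shares the array with no addition. Repeat spots of control sequences give the spread of bright spots over the array. The log2 difference between the arrays had an SD of 0.22 over 24 spots of each of the 2 positive controls. This SD holds the slope over blocks described below, so it is not the error of single spots alone. Relative to the gene probes the mean log2 differences of the 2 controls were -0.20 ± 0.22 and 0.50 ± 0.22 (SD, 24 spots of the same 2 arrays, which are not replicates). What these controls hybridise to is not given in the sources used here.

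**Figure D2:**
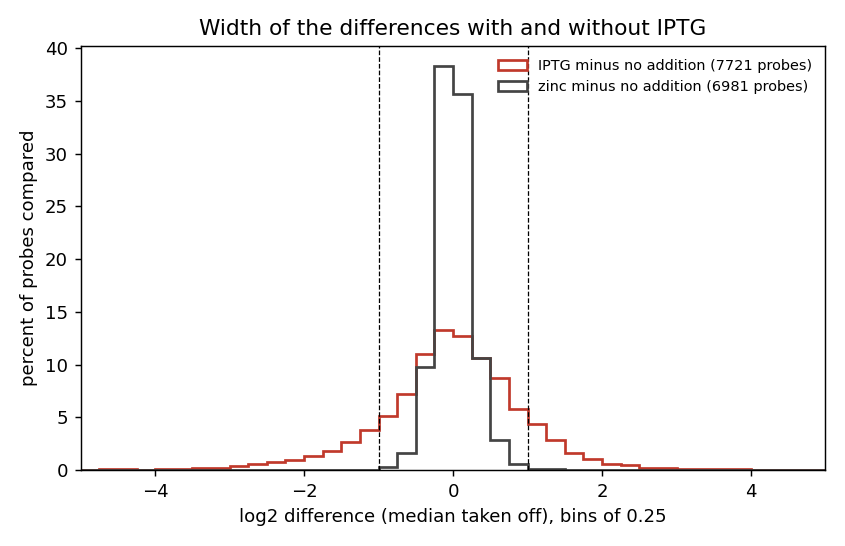
Percent of probes compared (vertical) per bin of 0.25 in log2 difference (horizontal, overall median taken off, drawn from -5 to 5). The red line is IPTG minus no addition (7721 probes) and the dark line zinc minus no addition (6981 probes); the dashed lines mark 2-fold, past which 25.4% and 0.258% of probes lay.

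Position on the array moved with the IPTG difference. The scanner files number 24 blocks of spots, and the median log2 difference of a block ran from -0.49 in block 1 to 0.49 in block 24. In blocks 1 to 3 the 2-fold counts were 66 higher and 223 lower. In blocks 22 to 24 this turned to 221 higher and 54 lower. In blocks 4 to 21 the counts were 645 and 751. A slope of the same sign appeared between zinc and no addition, with block medians from -0.42 to 0.36, while IPTG and zinc minus zinc ran from 0.48 in block 1 to -0.25 in block 24. The spots of the first positive control had a mean log2 signal above blank of 14.14 in block 1 and 13.65 in block 21 on the array with no addition, against 13.66 and 13.86 on the IPTG array. With the median of each block taken off in place of the overall median, the 2-fold counts were 839 higher and 980 lower (23.6% of 7721). Of the 932 higher probes, 745 were among these (79.9%), and of the 1028 lower probes, 891 (86.7%). At 4-fold the block medians left 161 higher and 263 lower, and at 8-fold 50 and 68. Most 2-fold probes therefore stayed past 2-fold within blocks, while the split between directions in the outer blocks did not match that in the middle.

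**Figure D3:**
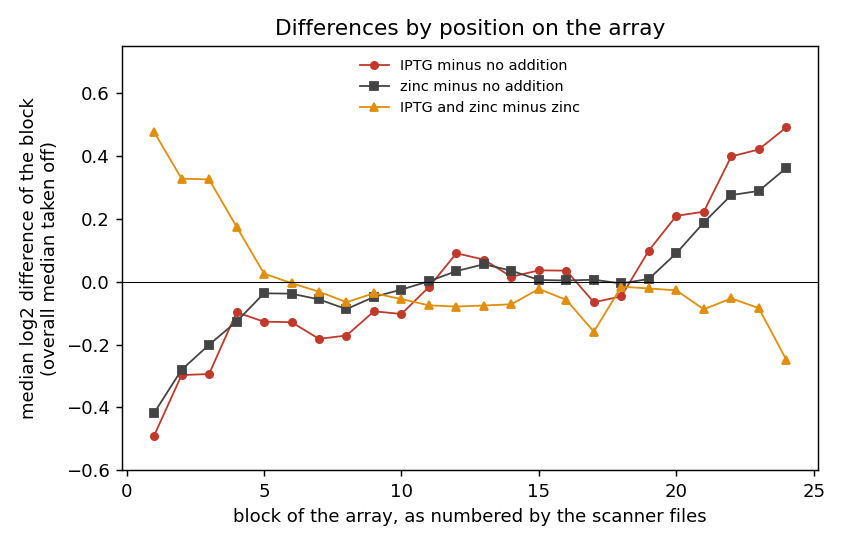
Median log2 difference of each block (vertical, overall median taken off) against the block number in the scanner files (horizontal, 24 blocks) for the 3 comparisons. IPTG minus no addition (red) climbs from -0.49 to 0.49 and zinc minus no addition (dark) from -0.42 to 0.36, while IPTG and zinc minus zinc (orange) falls from 0.48 to -0.25.

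The probe with the largest rise in this comparison was ENSRNOG00000032832. Its normalized intensity was 5.22 with no addition and 5501 with IPTG, and on the arrays with zinc it was 3.05 without IPTG and 8678 with it. The probe was chosen for its difference without zinc, so only the pair with zinc is free of that choice. Both IPTG arrays were high and both others near background. Relative to the median probe this was a rise of 840-fold in the absence of zinc and of 2306-fold in its presence. The scanner signal behind it was 76.9 with no addition, 12.4 SD above the mean of the blank spots, and 9799 with IPTG. With limma's normexp correction on the local background and an offset of 50, the folds were 96.0 without zinc and 124.9 with it; on the array with both additions the local background of this spot was 10933 beside a signal of 18921. The second was ENSRNOG00000002460, with 1.14 at no addition and 629 with IPTG. With zinc it was not listed without IPTG and stood at 582 with IPTG. Set against the lowest value listed on the zinc array, the probe was at least 605-fold higher relative to the median probe. Its value at no addition lay 2.71 SD above the blank mean, so the ratio of 439-fold is loosely set; with values under 5 set to 5 it was 100.2-fold. On the IPTG array the local background of this spot was 853 beside a signal of 1179, and the normexp correction gave 6.56-fold without zinc and 17.4-fold with it.

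The lower probes with the largest differences on the deposited values were ENSRNOG00000017084 and ENSRNOG00000029911. ENSRNOG00000017084 had 113 at no addition and 2.10 with IPTG, 67.8-fold lower. With zinc it went from 88.0 to 4.03, 27.0-fold lower. The value of ENSRNOG00000029911 was 144 with no addition and 3.28 with IPTG, 55.1-fold lower, and with zinc it went from 110 to 2.46, 55.3-fold lower. Both probes were chosen for the difference without zinc, and for both the 2 IPTG arrays lay far under the 2 arrays without IPTG. Their IPTG values were 4.50 and 7.03 SD above the blank mean. With values under 5 set to 5 the folds were 28.4 and 36.1. With normexp on the local background and an offset of 50 they were 3.59 and 4.50 without zinc and 3.70 and 3.68 with it. The order of these 2 probes thus turned in both settings without zinc. All 4 probes lay between blocks 5 and 14, and taking off block medians gave 917-fold and 419-fold for the higher probes and 63.5-fold and 55.7-fold for the lower.

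**Figure D4:**
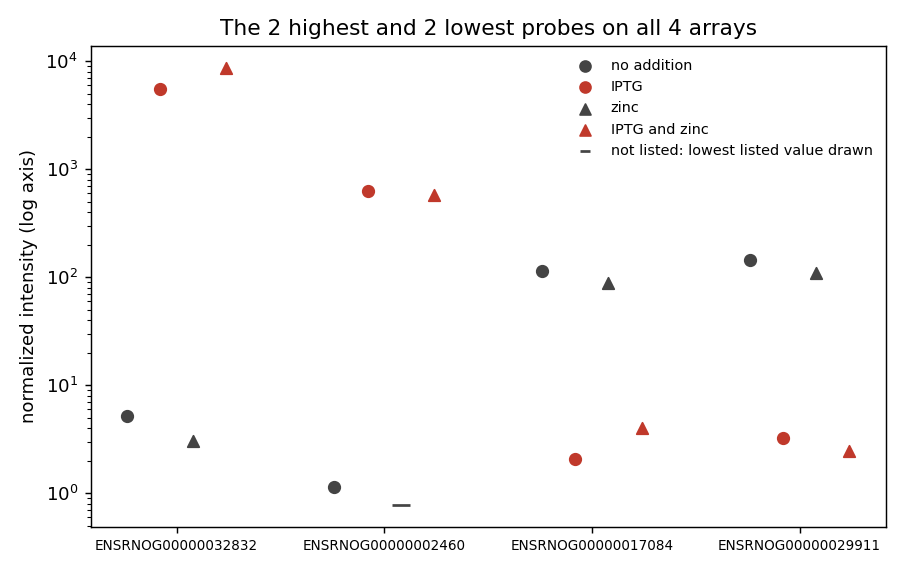
Deposited normalized intensity (vertical, log axis) of the 2 probes with the largest rise and the 2 with the largest fall, on the arrays with no addition (dark circle), IPTG (red circle), zinc (dark triangle) and both (red triangle). For every probe both red points lie on the same side of both dark points. The probes were chosen by the difference between the circles, so only the triangles were free to differ from this. The dark bar stands for a probe not listed on the zinc array and is drawn at the lowest value listed there, 0.779.

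The 15 probes that rose most ranged from 29.5-fold to 840-fold. Their values ran from 0.875 to 22.2 with no addition (median 3.26) and from 48.2 to 5501 with IPTG (median 297). On the 2 zinc arrays, 11 of the 15 were listed on both, and the IPTG difference there was 20.6-fold to 2306-fold higher. The 15 that fell most ranged from 21.9-fold to 67.8-fold, with a median of 112 at no addition and 3.89 with IPTG. Of these, 14 were listed on both zinc arrays, where 13 were at least 2-fold lower with IPTG, at a median of 18.7-fold and a smallest value of 1.53-fold.

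A further 14 probes were listed on 1 of the 2 arrays only. On the IPTG array alone 13 were listed, 2 of them because the spot without IPTG was marked as poor; these 2 have no comparison. The other 11 were under the detection limit with no addition and had 25.8 to 298 with IPTG. Set against the lowest value listed with no addition, they were at least 24.5-fold to 283-fold higher relative to the median probe. All 11 were listed with IPTG and zinc (5.63 to 310, median 32.5), and 10 of the 11 were not listed with zinc alone. Over all 20174 gene probes, 69.7% were listed with IPTG and zinc and 66.7% with zinc alone. The shares among probes of a like level were not computed. In the opposite direction, 1 probe had 28.8 with no addition and was not listed with IPTG, at least 38.9-fold lower on the same terms. Its value was 28.4 with zinc alone, and it was not listed with both additions.

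The pair of arrays with zinc shares no array with this comparison, and larger differences were met there more often. Of the probes listed on all 4 arrays (7714), the zinc pair had 547 that were 2-fold or more higher with IPTG (7.09%) and 623 lower (8.08%). Among probes at least 2-fold higher without zinc, 362 of 927 (39.1%) were at least 2-fold higher with zinc too. Among those at least 4-fold higher the count was 116 of 158 (73.4%), and among those at least 8-fold higher 39 of 46 (84.8%). For the lower probes the counts were 394 of 1027 (38.4%), 159 of 286 (55.6%) and 50 of 72 (69.4%). With block medians taken off both pairs, 391 of 834 (46.9%) of the higher and 403 of 979 (41.2%) of the lower probes were so at 2-fold, and 122 of 156 (78.2%) and 152 of 262 (58.0%) at 4-fold. The median log2 difference of the 927 higher probes was 1.38 without zinc and 0.78 with zinc, and that of the 1027 lower probes -1.53 and -0.73. Since the probes were chosen for a large difference without zinc, a smaller median in the other pair would also come from that choice, and no difference between the pairs is drawn from it.

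**Figure D5:**
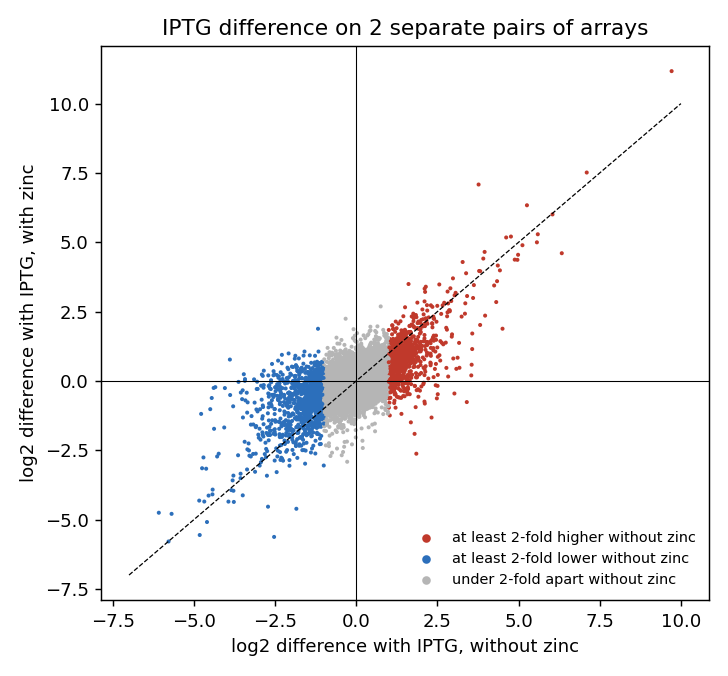
Log2 difference with IPTG on the arrays without zinc (horizontal) and with zinc (vertical) for the 7714 probes listed on all 4 arrays, each pair with its overall median taken off. Red and blue points are at least 2-fold higher and lower without zinc and the dashed line marks equal differences; of the red points 362 of 927 and of the blue points 394 of 1027 are at least 2-fold apart in the same direction with zinc.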

How the data were processed

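Total RNA from each culture was amplified to amino allyl RNA, coupled to Cy5 and hybridised to 1 single-colour array, per the labels' protocols. Per the file headers, the deposited scanner files give a median spot intensity and a local background intensity for 27456 spots, from 3 gains related by least squares. Normalized intensities in the authors' deposited table are linear, with a median of 25 on each array. Set against the scanner files, each column was the signal minus the mean of the blank spots (trimmed by 5% at each end), times a factor per array, and probes within 2 SD of the blank spots or marked poor are empty. The labels do not describe these steps.

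From the table, log2 ratios of IPTG over no addition were computed for probes with 25 or more on at least 1 of the 2 arrays and listed on both. The median ratio was taken off, and 2-fold was the limit. With 1 array per condition, no test was run, and the number of arrays limits precision. The step was tested on simulated data in which few probes changed, equally in both directions, with no slope over blocks. These arrays differ on those points, so the simulation does not cover them. Alternatives used R 4.3.3 with limma 3.58.1 (normexp, offset 50; quantile normalization) and Python 3.11.15.

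The members, the limits and the 19 function and 6 marker lists were chosen with earlier results of these data known. The naming rule took the 15 largest differences per direction, the 5 brightest probes listed on 1 array only, and list members. Identifiers without a symbol were to be counted and not named, so the 4 identifiers printed are an exception to it. As no identifier was paired with a symbol, lists and promoter sequences were not analysed here. The block medians, the removal of outer blocks, the floor of 5 and the limit of 25 on both arrays were added after the data were seen.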

Additional observations from a re-analysis of the deposited data

Results flagged for a closer look

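In opposite directions without and with zinc, 9 probes were at least 2-fold apart by IPTG: 6 were higher without zinc and lower with it, and 3 the reverse. The difference between the pairs was not tested, and with block medians taken off the count was 7.

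Spots listed as quality-control probes entered none of the comparisons. Of 521, 125 reached 25 on at least 1 of the 2 arrays on the deposited scale. At least 2-fold apart with IPTG were 9 of these, 3 higher and 6 lower, beside 1960 of the 7721 gene probes (25.4%). The median log2 difference of the 125 spots was -0.08, and single spots ran from -1.81 to 3.80. These spots were not matched to the gene probes for brightness. None of the 1344 blank spots reached 25. Of the 5273 spots marked as holding no probe, 1 reached 25, and its log2 difference with IPTG was -5.09. Values under the lowest listed value of an array were set to that value for these spots. An empty spot that passes the limit through 1 array alone must show a large difference. Nothing is drawn from this spot for the gene probes.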

How the results depend on the processing

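The main counts were 932 probes at least 2-fold higher and 1028 lower, 1960 together. Deposited values without centring gave 1559 and 659. With normexp on the local background, an offset of 50 and quantile normalization, the counts were 596 and 684 (1280 together). Of these, 390 and 414 belonged to the main lists, and 1 probe passed 2-fold in the opposite direction. The parts of the offset and of the local background in this were not separated. For spots brighter than 1000, the local background minus that of blank spots was a median of 27.7% of the signal with no addition and 37.2% with IPTG. Without a limit on dim probes there were 1365 and 1615 (2980), with a limit of 100 there were 542 and 542 (1084), and with both arrays at 25 or more 622 and 622 (1244); these settings compare other numbers of probes. At 1.5-fold the counts were 1765 and 1760 (3525), and at 3-fold 321 and 473 (794). Blank mean subtraction with quantile normalization (952 and 968) and 10 added (696 and 852) stayed within 1.5 times of the main counts. So did values under 5 set to 5 (932 and 1028) and block medians (839 and 980). Removal of blocks 1 to 3 and 22 to 24 (655 and 737) did too, with only 5800 probes compared. Of these 5800, 24% were past 2-fold, beside 25.4% of the 7721. The 4 printed identifiers kept their direction in each setting in which they were compared; all 4 fail the limit of 25 on both arrays, and changing the fold limit leaves their values as they are. The alternatives for function lists were not run, since no list could be matched. No paired analysis was possible because each condition had 1 array. Signal near the blank spots limits the size of large folds.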
